A study of Mus musculus with 4 samples.

Results

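Ramp1, Ramp2, Ramp3, Calcrl, Calcr, Adm, Adm2 and Calca encode the receptor activity modifying proteins (RAMPs), the receptors they act with, and peptide ligands of those receptors. These 8 genes were followed in mammary tumours with and without AXL, among 38293 gene rows measured. They were chosen by symbol, because Ramp1 had been seen at a lower level in tumours without AXL in these same libraries, and the other 7 belong to the same ligand and receptor system. The values of AXL KO against WT for these genes are therefore a description and carry no test.

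The calcitonin receptor-like receptor, encoded by Calcrl, needs a RAMP as a partner to reach the cell surface and to bind ligand. With RAMP1 it forms the receptor for calcitonin gene-related peptide (CGRP), and with RAMP2 or RAMP3 it forms receptors for adrenomedullin. The receptor couples mainly to the stimulatory G protein and raises cyclic AMP, and it is best known from blood and lymphatic vessels, where Calcrl, Ramp2 and Adm are needed for vascular development. Adm is also a known target of hypoxia-inducible factor.

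RNA was sequenced from 4 mammary tumours of FVB mice of the MMTV-Neu model. Groups were WT and AXL KO, with 2 libraries each, and all 4 tumours carry Neu (Erbb2), an oncogene that a mouse mammary tumour virus promoter drives in mammary epithelium. The age of the mice, and whether each library came from a separate animal, are not stated in the labels, so each p-value reflects the spread of these samples alone, which may be partly technical. A library of a whole tumour mixes cell types, and a lower value can reflect fewer cells of a type or less RNA per cell, which cannot be told apart.

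Reads counted in genes ran from 18929743 to 33131739 per library. Counts of Axl were 1321 and 673 in the WT libraries against 89 and 163 in the AXL KO libraries, in the direction of the labels. WT replicate 2 stood apart from the other 3 libraries in hypoxia targets and in T cell and NK cell markers. Its mean log2 deviation from the gene means was 1.19 over 31 hypoxia targets, where the others lay between -0.41 and -0.38. Over 12 T cell and NK cell markers it was -1.57, where the others lay between 0.26 and 0.66. Over 10 fibroblast markers AXL KO replicate 1 was lowest instead, at -0.66, where the others lay between -0.13 and 0.42. The description of AXL KO replicate 2 opens with another code than the 3 other descriptions, which share theirs, so leaving that library out gives the values within the shared code.

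Promoter sequences are shown for Ramp1, whose level chose the genes, and for Adm and Adm2, which were both high in a single library. Each is the 250 bases before the RefSeq start on the plus strand of GRCm38.p6, at chr1:91179572-91179821 for Ramp1, chr7:110627407-110627656 for Adm and chr15:89322470-89322719 for Adm2. Capitals mark the core of the hypoxia response element, ACGTG or GCGTG, on either strand.
Ramp1: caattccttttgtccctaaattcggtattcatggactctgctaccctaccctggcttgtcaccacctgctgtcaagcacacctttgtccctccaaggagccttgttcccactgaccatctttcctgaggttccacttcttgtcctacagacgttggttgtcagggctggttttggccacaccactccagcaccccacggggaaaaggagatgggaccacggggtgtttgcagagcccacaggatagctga
Adm: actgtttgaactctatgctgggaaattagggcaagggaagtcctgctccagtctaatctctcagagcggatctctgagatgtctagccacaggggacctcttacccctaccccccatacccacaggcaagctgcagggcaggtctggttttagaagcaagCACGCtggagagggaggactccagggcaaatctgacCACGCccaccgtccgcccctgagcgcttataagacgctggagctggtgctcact
Adm2: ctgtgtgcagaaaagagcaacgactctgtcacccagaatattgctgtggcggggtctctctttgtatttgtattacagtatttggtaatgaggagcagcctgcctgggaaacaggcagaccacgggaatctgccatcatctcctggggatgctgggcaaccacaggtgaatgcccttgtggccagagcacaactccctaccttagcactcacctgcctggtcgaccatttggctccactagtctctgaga
The Adm window held 2 cores, both GCGTG on the minus strand, at bases -90 to -86 and -54 to -50 before the start. At least 1 core was present in 38.6% of 32851 promoter windows of the same length, and at least 2 in 16.7%. No core stood in the Ramp1 and Adm2 windows, nor did any of the 3 other motifs searched on both strands: the cAMP response element TGACGTCA (in 1.55% of all windows), TATAAA (12.4%) and the ATF4 and C/EBP composite TGATGNAA (3.45%). The Ramp3 window also held 2 cores, both GCGTG, at -219 to -215 on the minus strand and -65 to -61 on the plus strand. The Calcrl window held 1 TGATGNAA match, at -75 to -68, and the Calcr and Calca windows held none of these motifs. A match describes letters and not a bound site. RefSeq windows were found for 7 of the 8 genes, all but Ramp2.

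Ramp1, the CGRP receptor partner, was 2.89-fold lower in AXL KO tumours. It was at 15.3 and 15.5 CPM (gene reads scaled to the size of the library) in the WT libraries, while the AXL KO libraries had 6.20 and 4.50 CPM; here and below replicate 1 comes before replicate 2. The groups did not overlap, and the WT libraries were close together. These levels rest on 327, 297, 116 and 150 reads in the same order. Group means were 15.4 ± 0.183 CPM in the WT group and 5.35 ± 1.20 CPM in the AXL KO group (SD, n = 2 each). The log2 difference, AXL KO minus WT in edgeR's fit, was -1.53 with a standard error of 0.30, which ranked 121 from the lowest of the 14330 genes tested. Leaving out 1 library at a time gave -1.78 to -1.33, and the fit without AXL KO replicate 2, within the shared description code, gave -1.33. The gene (ENSMUSG00000034353) lies on the plus strand of chromosome 1 from 91179822 to 91225196 in GRCm38, and no other annotated gene overlaps it.

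The genes beside Ramp1 on the chromosome did not share its difference in size. Mlph, Rab17 and Lrrfip1, the 3 nearest tested genes before it, had log2 differences of 0.38, 0.09 and 0.31. After it, Ube2f, Gm7785 and Scly had -0.25, -0.34 and 0.31. Ube2f, a NEDD8-conjugating enzyme gene, was at 55.9 and 50.4 CPM in the WT tumours against 44.1 and 45.1 CPM in the AXL KO tumours. All 6 had unadjusted p-values of at least 0.179 by edgeR's quasi-likelihood test, while differences between them and Ramp1 were not tested.

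Ramp2, a partner for adrenomedullin signalling, overlapped between the groups. Its level was 3.46 and 4.14 CPM in the WT tumours and 2.51 and 4.83 CPM in the AXL KO tumours, so AXL KO held both the lowest and the highest library. The log2 difference was -0.04 ± 0.45 (SE). It turned positive when WT replicate 2 was left out (0.11) and when AXL KO replicate 1 was (0.34), and was -0.61 without AXL KO replicate 2. Ramp2 (ENSMUSG00000001240, chromosome 11 from 101246028 to 101259546, plus strand) shares 1103 of its 3301 exon bases with Vps25, an endosomal sorting gene on the same strand. Reads in the shared bases may be missing from both counts. Vps25 itself had 27 and 34 counts in the WT libraries and 22 and 62 in the AXL KO libraries, against 74, 79, 47 and 161 for Ramp2 in the same order.

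Ramp3, the other adrenomedullin partner, was the least abundant of the 3 partner genes per exon length in every library. It was at 0.982 and 1.47 CPM in the WT tumours against 0.534 and 0.750 CPM in the AXL KO tumours. The AXL KO libraries lay below the WT libraries, but with 10 to 28 reads per library the counting intervals overlapped. The 95% exact Poisson interval, which covers counting error only, was 0.608 to 1.501 CPM in WT replicate 1 and 0.485 to 1.11 CPM in AXL KO replicate 2. The log2 difference was -0.89 ± 0.52 (SE), and -1.20 to -0.57 with 1 library left out. Ramp3 (ENSMUSG00000041046) lies on chromosome 11 from 6658521 to 6677475 on the plus strand. It shares 101 exon bases with a pseudogene on the other strand that had no reads.

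**Figure D1:**
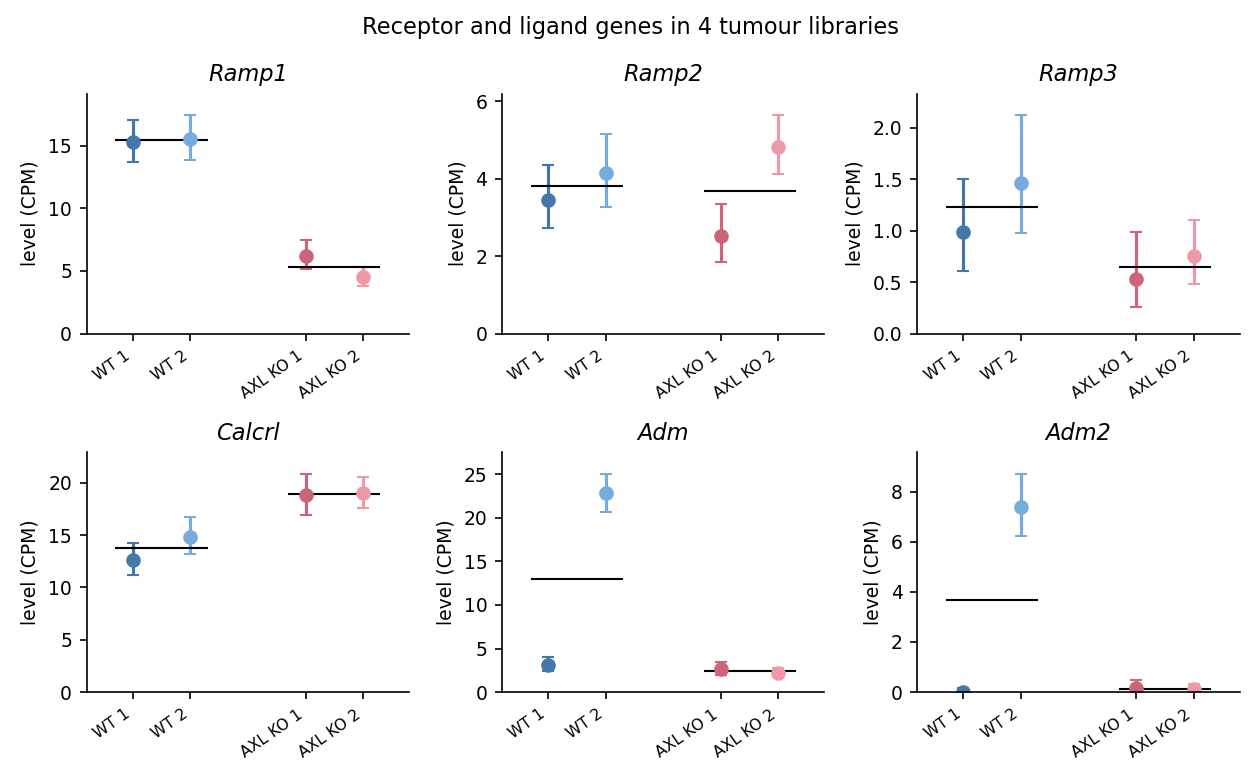
Level in CPM (linear axis from 0) of 6 genes in each of the 4 libraries; points are libraries, bars are 95% exact Poisson intervals of the counts, and black lines are group means of 2 libraries. Ramp1 separates the groups, with 15.3 and 15.5 CPM in WT against 6.20 and 4.50 CPM in AXL KO, while Adm and Adm2 are high in WT replicate 2 alone.

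Calcrl, the receptor gene itself, was 1.38-fold higher in AXL KO tumours, opposite in direction to Ramp1. It was at 12.6 and 14.9 CPM in the WT tumours against 18.8 and 19.0 CPM in the AXL KO tumours. The groups did not overlap, and the AXL KO libraries differed from each other by less than the WT libraries did. The means were 13.7 ± 1.59 CPM in the WT group and 18.9 ± 0.172 CPM in the AXL KO group (SD, n = 2 each). In edgeR's fit the log2 difference was 0.46 ± 0.24 (SE), and it stayed positive, from 0.35 to 0.58, with any 1 library left out. Calcrl (ENSMUSG00000059588) is on chromosome 2 from 84330626 to 84425411, minus strand, with no overlapping gene.

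Calcr, which encodes the calcitonin receptor and with RAMPs forms amylin receptors, had 0 reads in all 4 libraries. A count of 0 allows up to 3 counts, which is between 0.0900 and 0.160 CPM depending on the library. Transcripts of this gene (ENSMUSG00000023964, chromosome 6 from 3685680 to 3764714, minus strand) were thus not detectable at this depth in either group.

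The ligand gene Adm was high in 1 WT library and low in the other 3. WT replicates 1 and 2 had 3.13 and 22.8 CPM, and AXL KO replicates 1 and 2 had 2.62 and 2.16 CPM. Although both AXL KO libraries were below both WT libraries, WT replicate 1 was far nearer to the AXL KO libraries than to WT replicate 2. The mean was 12.98 ± 13.9 CPM in the WT group and 2.39 ± 0.324 CPM in the AXL KO group (SD, n = 2 each), so the SD in WT exceeded its mean. The log2 difference of -2.44 ± 0.93 (SE) became -0.40 ± 0.44 without WT replicate 2 and -3.26 without WT replicate 1. Adm (ENSMUSG00000030790) lies on the plus strand of chromosome 7 from 110627661 to 110629820.

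Adm2, which encodes intermedin, another ligand of the same receptors, had reads almost only in WT replicate 2. WT replicates 1 and 2 held 0 and 141 reads, and the AXL KO libraries 3 and 4, or 0, 7.38, 0.160 and 0.120 CPM. WT replicate 2 was thus at least 52.6-fold higher than WT replicate 1, taking 3 counts as the floor of that library. Its ratio was 46.1 to AXL KO replicate 1 (95% exact interval from the counts 15.4 to 226) and 61.5 to AXL KO replicate 2 (23.5 to 229). The high library belongs to the WT group and its replicate is the lowest of all, so the groups overlap. Adm2 (ENSMUSG00000054136, chromosome 15 from 89322720 to 89324731, plus strand) did not pass the low-count filter.

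Calca encodes both calcitonin and CGRP, which alternative splicing separates, and counts per gene cannot say which of the products is meant. Each WT library had 1 read and the AXL KO libraries had 1 and 0, all at or under the floor of 3 counts. Transcripts of this gene (ENSMUSG00000030669, chromosome 7 from 114631478 to 114636357, minus strand) were thus not detectable above that floor in either group. The CGRP peptide itself was not measured, so its presence in the tumours was not tested. Calcb, which encodes the other CGRP, and the amylin gene Iapp had 0 reads in all 4 libraries.

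Of the 8 genes, 5 passed the low-count filter: Ramp1, Ramp2, Ramp3, Calcrl and Adm. Of these, 3 were lower in each AXL KO library than in each WT library, beside 14.5% of all 14330 tested genes, and 1 was higher in each, beside 14.7%. Because Ramp1 was chosen on this contrast, nothing is read from those counts. Over all genes, edgeR's quasi-likelihood test called 0 (0% of 14330) past an adjusted p of 0.05, with 314 (2.19%) at an unadjusted p under 0.05. DESeq2 called 16 and limma-voom 0.

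**Figure D2:**
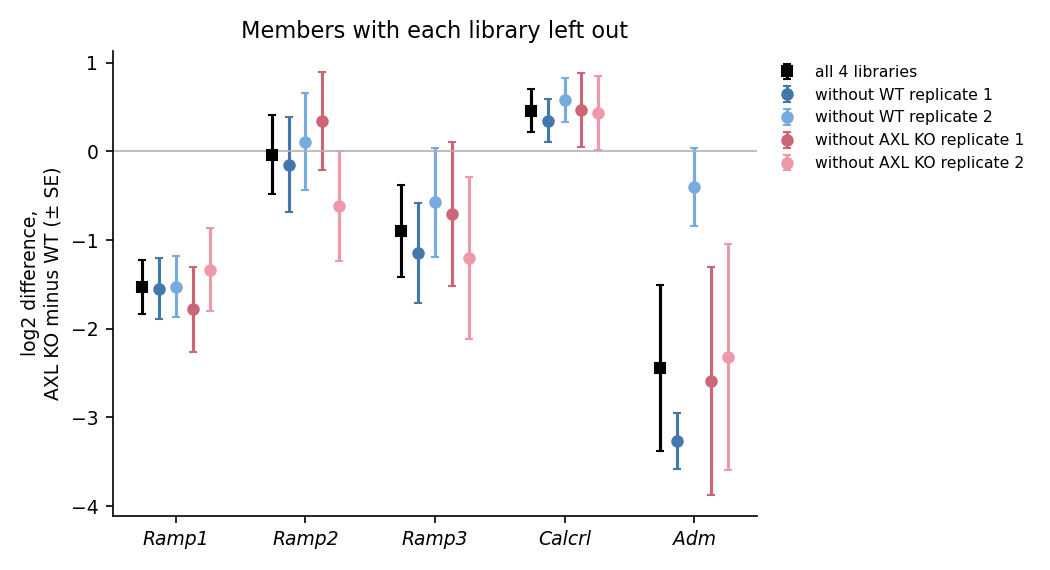
Log2 difference (AXL KO minus WT, ± SE from edgeR's fit) of the 5 genes that passed the filter, with all 4 libraries (squares) and with each library left out (circles). Ramp1 stays between -1.78 and -1.33, whereas Adm moves from -2.44 to -0.40 without WT replicate 2 and Ramp2 lies on both sides of 0.

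Levels between genes were compared as CPM per kb of exon. The length was that of all annotated exon bases of a gene, such as 3022 for Ramp1 and 4882 for Calcrl. The length of the transcripts present is not known, so orders, shares and ratios between genes depend on that choice. In the WT tumours Adm came first by its mean, at 8.02 ± 8.60, then Ramp1 at 5.10 ± 0.0607, Adm2 at 2.84 ± 4.02, Calcrl at 2.82 ± 0.325, Ramp2 at 1.15 ± 0.145 and Ramp3 at 0.887 ± 0.248 CPM per kb (SD, n = 2). The places of Adm and Adm2 rest on WT replicate 2. In WT replicate 1 Adm was at 1.94 CPM per kb, below Ramp1 (5.06) and Calcrl (2.59), and Adm2 was at 0. Ramp2 and Ramp3 did not differ beyond their spread.

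In the AXL KO tumours Calcrl came first instead, at 3.88 ± 0.0353 CPM per kb. Ramp1 followed at 1.77 ± 0.397, Adm at 1.48 ± 0.200, Ramp2 at 1.11 ± 0.497, Ramp3 at 0.465 ± 0.111 and Adm2 at 0.108 ± 0.0219 CPM per kb (SD, n = 2). The spreads of Ramp1, Adm and Ramp2 overlapped, so their order is not fixed by these libraries. Calcrl stood above the rest in both libraries.

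The make-up of the RAMP transcripts was then described per exon length. Ramp1 took 74.2% and 69.0% of the reads per kb of the 3 partner genes in the WT libraries, and 64.1% and 42.6% in the AXL KO libraries. Ramp2 took 15.4% and 16.8% in WT and 23.8% and 41.9% in AXL KO, and Ramp3 between 10.4% and 15.5% in all libraries. Ramp1 thus held the largest share in each library, though by less than 1 percentage point in AXL KO replicate 2. When the exon bases Ramp2 shares with Vps25 were left out of its length, Ramp1 took 68.9%, 63.6%, 57.3% and 35.2% in the same order, and Ramp2 held the larger share, 51.9%, in AXL KO replicate 2.

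Relative to Calcrl, reads per kb of Ramp1 came to 1.96 and 1.69 in WT and to 0.532 and 0.382 in AXL KO. Per annotated exon length Ramp1 thus had more reads than Calcrl in both WT libraries and fewer in both AXL KO libraries. The same ratio for Ramp2 was 0.405 and 0.411 in WT and 0.197 and 0.375 in AXL KO. All 3 partner genes summed came to 2.64 and 2.45 per Calcrl in WT and 0.830 and 0.896 in AXL KO. Without the bases shared with Vps25 the Ramp2 ratio was 0.609 and 0.618 in WT and 0.297 and 0.563 in AXL KO. The summed ratio was then 2.84 and 2.66 in WT and 0.929 and 1.08 in AXL KO, above 1 in AXL KO replicate 2. Transcript ratios in whole tumours do not say that the genes were read in the same cells.

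**Figure D3:**
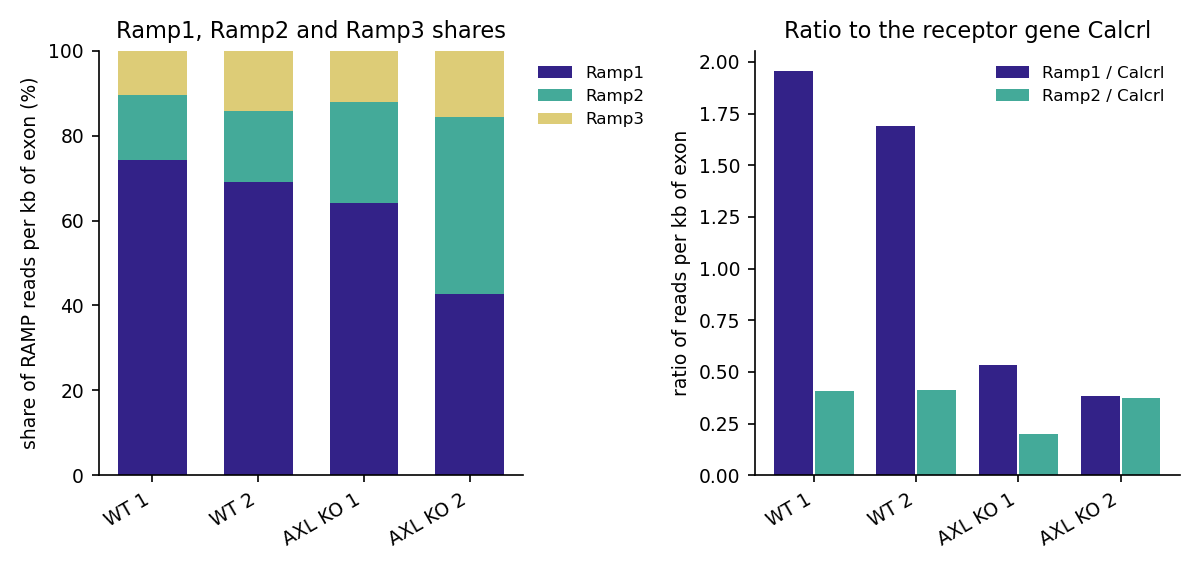
Left, shares (%) of Ramp1, Ramp2 and Ramp3 in their summed reads per kb of exon in each library; right, reads per kb of Ramp1 and Ramp2 as a ratio to Calcrl (both axes from 0). The Ramp1 ratio is 1.96 and 1.69 in WT and 0.532 and 0.382 in AXL KO.

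Genes with the pattern most like that of Ramp1 over the 4 libraries were Bcl3, Ppil6, Mtcl1, Slpi and Hmox1. Likeness was measured as the root mean square distance between log2 CPM centred on each gene's mean, over 12338 candidate genes, and these 5 lay 0.28 to 0.31 from Ramp1. Bcl3, an atypical IκB protein gene, was at 11.04 and 13.2 CPM in the WT tumours against 4.38 and 5.22 CPM in the AXL KO tumours. Hmox1, the haem-degrading heme oxygenase 1 gene, was at 286 and 274 CPM in the WT tumours against 93.1 and 123 CPM in the AXL KO tumours. Slpi, a secreted protease inhibitor gene, was at 2.06 and 3.72 CPM in the WT tumours against 0.961 and 0.870 CPM in the AXL KO tumours. Among the other members Ramp3 was nearest to Ramp1, at 0.50, and Calcrl the farthest, at 1.01.

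Adm had closer neighbours, at 0.17 to 0.24: A2m, Ankrd37, Slc16a3, Psrc1 and Smtnl2. All 5 were high in WT replicate 2 alone. Ankrd37, a hypoxia-inducible factor target, was at 1.26 and 13.5 CPM in the WT tumours against 1.18 and 1.14 CPM in the AXL KO tumours. Slc16a3, the lactate exporter gene, was at 1.403 and 14.5 CPM in the WT tumours against 1.82 and 1.29 CPM in the AXL KO tumours. A2m, the protease inhibitor alpha-2-macroglobulin gene, was at 14.9 and 82.7 CPM in the WT tumours against 11.8 and 10.9 CPM in the AXL KO tumours.

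**Figure D4:**
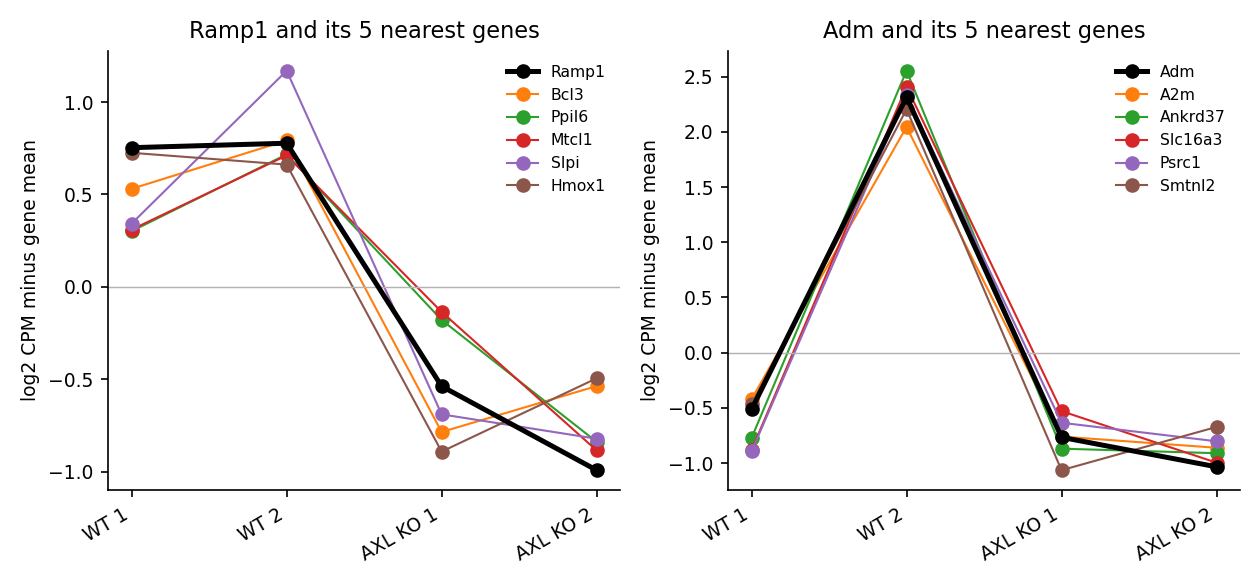
Log2 CPM minus the gene's mean over the 4 libraries for Ramp1 (left, black) and Adm (right, black) with their 5 nearest genes in colour; lines only join the points of a gene. The Ramp1 set is high in both WT libraries, the Adm set in WT replicate 2 alone.

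Hypoxia and HIF targets, the group Adm belongs to, shared its pattern, with high values in WT replicate 2. Of 31 tested genes (Adm not among them) 30 had a negative log2 difference, with a median of -0.78 where all tested genes had a median of -0.0019. By edgeR's quasi-likelihood test 0 passed at an adjusted p of 0.05, and 4 were lower and 0 higher at an unadjusted p under 0.05, beside 1.04% and 1.15% of all genes. Ndrg1, a stress-response gene, was at 12.1 and 275 CPM in the WT tumours against 8.44 and 9.96 CPM in the AXL KO tumours. Egln1, an oxygen-sensing prolyl hydroxylase gene, had 63.2 and 105 against 49.4 and 47.0 CPM. Higd1a, a mitochondrial protein gene, had 14.8 and 57.4 against 9.99 and 10.8 CPM, and as for Adm the highest library of each was WT replicate 2. Without WT replicate 2 the median was 0.10, 12 genes were negative and 0 had an unadjusted p under 0.05, beside 1.31% of all genes lower and 1.44% higher at that p. Without WT replicate 1 the median was -1.30, with 25 genes lower at an unadjusted p under 0.05 and 10 past the adjusted threshold. In that fit 10.8% of all 14330 genes were lower at that p and 1.51% passed the adjusted threshold.

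Genes that make, process or remove the peptides had a median log2 difference of -0.01 over the 11 tested of 14 listed. With 1 library left out that median ran from -0.12 to 0.24, on both sides of 0. By edgeR with all 4 libraries 0 passed when adjusted over all genes. At an unadjusted p under 0.05 in that test 1 was higher and 0 lower, beside 1.15% and 1.04% of all genes. The higher gene was Pcsk1, a prohormone convertase, with 3 and 2 reads in the WT libraries and 46 and 25 in the AXL KO libraries. Both WT counts were at or under the floor of 3, and the gene passed the low-count filter through the AXL KO group, so nothing is read from its count. Pam, Cpe and Ackr3 were picked for their roles after the values were seen. Cpe, the peptide-processing carboxypeptidase E gene, was at 5.94 and 161 CPM in the WT tumours against 4.06 and 14.3 CPM in the AXL KO tumours. It was highest in WT replicate 2, and its log2 difference of -3.17 ± 1.49 (SE) became 0.65 without that library. Pam encodes the enzyme that amidates adrenomedullin and CGRP. Pam was at 39.5 and 39.2 CPM in the WT tumours against 33.4 and 39.0 CPM in the AXL KO tumours. Ackr3, whose product binds adrenomedullin, was at 3.27 and 4.76 CPM in the WT tumours against 2.51 and 5.07 CPM in the AXL KO tumours.

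Among 13 other class B receptor genes, some of whose products can also pair with RAMPs, 3 were tested and 4 had no reads. Pth1r, the parathyroid hormone receptor gene, was at 0.421 and 0.995 CPM in the WT tumours against 0.427 and 0.600 CPM in the AXL KO tumours. Adcyap1r1, the receptor gene for the neuropeptide PACAP, was at 0.842 and 0.890 CPM in the WT tumours against 0.374 and 1.32 CPM in the AXL KO tumours. The most abundant, picked after its values were seen, was the VIP receptor gene Vipr1, at 240 and 171 CPM in the WT tumours against 228 and 180 CPM in the AXL KO tumours. Its groups overlapped, and 0 of the 3 reached an unadjusted p under 0.05 by edgeR.

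Genes of the stimulatory G protein, cyclic AMP and arrestin pathway downstream of Calcrl had a median log2 difference of -0.06 over 37 tested. With 1 library left out that median ran from -0.18 to 0.05. With all 4 libraries 21 of the 37 were negative and 16 positive. By edgeR 0 passed at an adjusted p of 0.05, and 4 were lower and 0 higher at an unadjusted p under 0.05, beside 1.04% and 1.15% of all genes. In each AXL KO library 8 of 37 were lower than in each WT library and 3 were higher, beside 14.5% and 14.7% of all genes. Sik1, a kinase gene, was at 23.2 and 19.2 CPM in the WT tumours against 10.6 and 13.6 CPM in the AXL KO tumours. Pde4a, a cyclic AMP phosphodiesterase gene, was at 11.9 and 16.4 CPM in the WT tumours against 8.07 and 6.96 CPM in the AXL KO tumours. For Arrb1, the beta-arrestin 1 gene, the values were 77.7 and 194 against 49.8 and 61.5 CPM, with WT replicate 2 far above the rest. Without WT replicate 2 the lower genes at that p numbered 1, without WT replicate 1 they numbered 5, and without AXL KO replicate 1 or AXL KO replicate 2 they numbered 0. The share of all genes lower at that p in those fits was 1.31%, 10.8%, 0.272% and 0.796%. The log2 difference of Arrb1 was -1.29 with all libraries and -0.48 without WT replicate 2.

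Vessel markers were set beside Calcrl and Ramp2, which endothelial cells express. Endothelial markers had a median log2 difference of 0.07 over 21 tested, with 16 positive, and their summed level was 242 and 242 CPM in the WT tumours and 209 and 294 CPM in the AXL KO tumours. By edgeR 0 of them passed at an adjusted p of 0.05, and 0 had an unadjusted p under 0.05. The median was -0.18, with 16 of 21 negative, without AXL KO replicate 2, and 0.26, with 0 negative, without AXL KO replicate 1. Mmrn2 was at 8.28 and 9.27 CPM in the WT tumours against 9.29 and 12.9 CPM in the AXL KO tumours, and Ptprb at 13.2 and 13.4 against 12.0 and 21.5 CPM. Like Ramp2, the endothelial sum was lowest in AXL KO replicate 1 and highest in AXL KO replicate 2, while Calcrl was nearly equal in those libraries. Lymphatic endothelial markers summed to 10.6 and 14.5 CPM in the WT tumours and 8.76 and 16.4 CPM in the AXL KO tumours. The 4 tested had a median log2 difference of 0.02, with 2 negative and 2 positive. With 1 library left out that median ran from -0.53 to 0.35. Prox1, the lymphatic transcription factor gene, was higher at an unadjusted p under 0.05 by edgeR (adjusted p = 0.9997), beside 1.15% of all genes. It was at 0.935 and 0.314 CPM in the WT tumours against 2.14 and 2.999 CPM in the AXL KO tumours. Prox1 passed the low-count filter through the AXL KO group, so nothing is read from its p-value. The part of vessel content in the Calcrl and Ramp2 levels was not tested.

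Pericyte and smooth muscle markers were set beside Ramp1, which vascular smooth muscle and neurons express. They summed to 283 and 405 CPM in the WT tumours and 246 and 306 CPM in the AXL KO tumours. Over 12 tested the median log2 difference was -0.34, with 7 negative and 5 positive, and 0 had an unadjusted p under 0.05 by edgeR. Acta2 was at 18.7 and 46.6 CPM in the WT tumours against 9.99 and 21.1 CPM in the AXL KO tumours, and Notch3 at 149 and 186 against 133 and 132 CPM. With 1 library left out that median ran from -0.82, without AXL KO replicate 2, to 0.05, without WT replicate 2. The part of these cells in the Ramp1 level was not tested. Of 16 neuron and Schwann cell markers 6 were tested and 5 had no reads in any library, among them the neuronal genes Snap25, Nefl, Nefm and Tac1. The list summed to 823 and 1121 CPM in the WT tumours and 798 and 773 CPM in the AXL KO tumours, of which the transcription factor gene Sox10 made up 723, 948, 717 and 677 CPM.

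Epithelial and other markers gave no count past edgeR's test at an adjusted p of 0.05 either, with 0 genes at an unadjusted p under 0.05 in each of the 6 lists. Luminal and tumour epithelial markers had a median log2 difference of -0.10 over 12 genes, but their sum was 16314 and 18280 CPM in the WT tumours and 25064 and 24972 CPM in the AXL KO tumours. Erbb2, whose reads may include the Neu transgene, made up 10967 and 12594 CPM of it in WT and 19776 and 19975 CPM in AXL KO. Of the 12 genes 8 had a negative log2 difference and 4 a positive one, and the higher sum in AXL KO rested on Erbb2. Erbb2 thus moved opposite to Ramp1 and with Calcrl, and its part in either level was not tested. The medians were -0.62 for basal, -0.19 for fibroblast, 0.12 for macrophage, 0.65 for T cell and NK cell and 0.11 for adipocyte markers. With 1 library left out they ran from -1.02 to 0.36, -0.68 to 0.20, -0.20 to 0.53, -0.14 to 2.49 and -0.19 to 0.69 in the same order, so each lay on both sides of 0. Basal markers were positive only without WT replicate 2, and T cell and NK cell markers negative only without it. The part of these cells in the levels of the 8 genes was not tested.

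**Figure D5:**
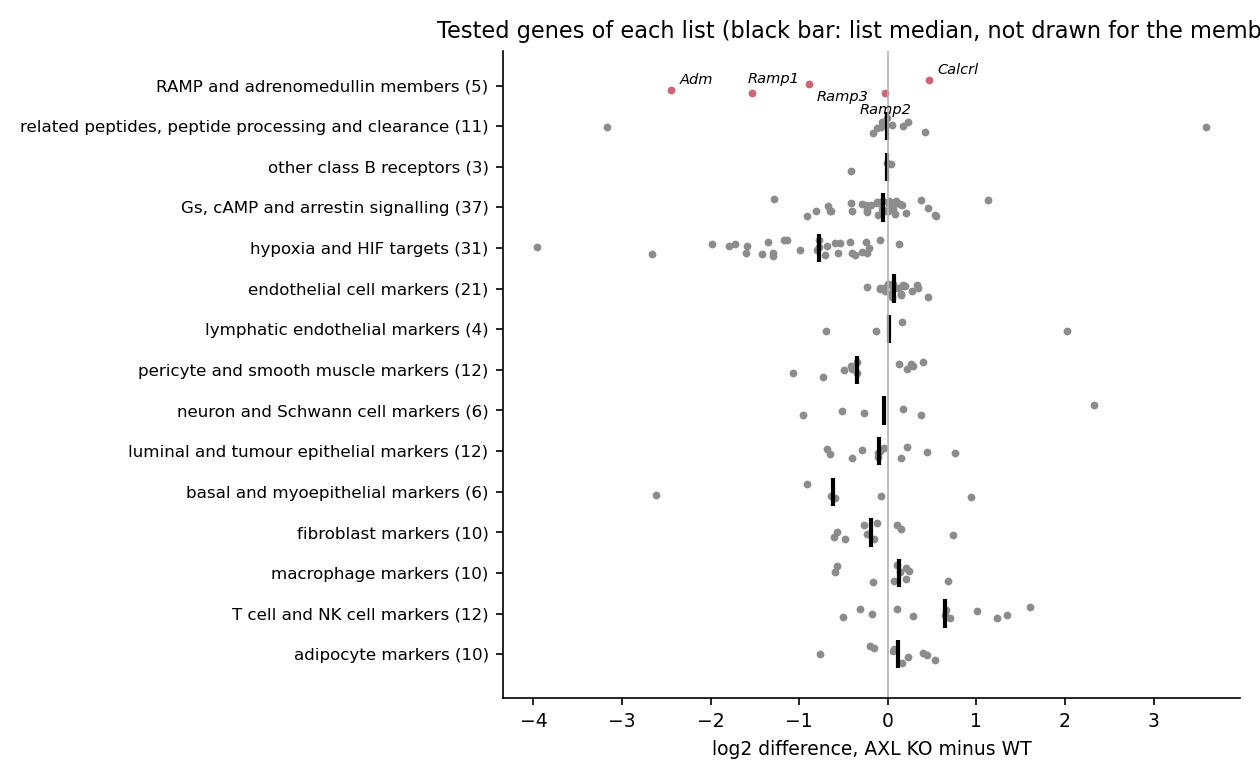
Log2 difference (AXL KO minus WT) of each tested gene, with the 5 members in colour and the other lists in grey; numbers in brackets are genes tested and black bars list medians. The hypoxia median of -0.78 lies lowest among the lists with a bar, and the endothelial median is 0.07.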

How the data were processed

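Whole-number read counts per Ensembl gene, without normalisation, were deposited by the authors for 4 libraries. TopHat2 2.0.10, HTSeq 0.5.3, DESeq2 1.4.5, CASAVA 1.8 and the build GRCm38 are named in the submitters' processing notes, with no roles. The annotation release and strand setting are not stated there. Lines that name no gene stayed out. They held 5.27% to 8.11% of reads outside genes, 0.635% to 1.85% ambiguous and 23.2% to 28.1% not unique. Symbols, positions and exon lengths came from GENCODE M21 (GRCm38), which matched 36345 of 38293 identifiers.

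edgeR 4.0.16 in R 4.3.3 compared the groups (filterByExpr, 14330 genes kept; TMM factors; glmQLFit with legacy=FALSE, glmQLFTest; Benjamini-Hochberg adjustment over all genes, threshold 0.05). The biological coefficient of variation was 0.310. Standard errors follow from the fold change and its F statistic. Log2 CPM used a prior count of 2. The test was checked on simulated counts. Alternatives were other scalings and filters, DESeq2 1.42.0, limma-voom (limma 3.58.1), a replicate block and each library left out.

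Groups came from the sample titles. Members and gene lists were chosen with earlier results of these data known. Besides the members, each list names up to 3 genes with an unadjusted p under 0.05, or else its 2 with the smallest p. Lists summarised by medians alone name none, and values of some single genes that the rule would name are left out. Pattern neighbours needed a mean CPM of at least 1.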

Additional observations from a re-analysis of the deposited data

How the results depend on the processing

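With all 4 libraries edgeR called 0 genes. DESeq2 called 16, and leaving out 1 library gave 0 to 216, the 216 without WT replicate 1. Counts per list without 1 library were added after seeing the data. With the replicate block edgeR called 0, and 571 genes had an unadjusted p under 0.05, against 314 without it. Same-numbered libraries deviated from their group means with a correlation of -0.04 over 14330 genes. The titles' numbers thus showed no sign of pairing, though so few libraries cannot exclude it. Under the block Ramp1 was at -1.55, Calcrl at 0.47, Ramp3 at -0.92, Ramp2 at -0.11 and Adm at -1.89. Under all settings run that kept all 4 libraries, Ramp1 lay between -1.58 and -1.53, Calcrl between 0.44 and 0.47 and Adm between -2.47 and -1.80. Ramp3 was not kept by the filter of a CPM of at least 1 in 2 libraries. With 1 library left out, the lone library of its group is assumed to vary like the other group. Read number limits Ramp3, Adm2, Calca and Calcr.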
